A study of Mus musculus with 15 samples.

Results

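Nono was followed through the probe CUST_11_PI419532418, which carries the RefSeq transcript NM_023144.2 and is printed 20 times on every array. It is 1 of 59709 distinct probes outside the controls and 1 of 15 genes printed 20 times each, which are called reference genes here. The gene was chosen with its levels in these samples known, so its levels across genotype and age are given as a description, with no test. The arrays measured total RNA of mouse brain, labelled with Cy3 and hybridised with a single colour. Wild-type (WT) mice of C57BL background had 2 arrays and no age in the sample labels. APP/PS1 mice, a transgenic model of Alzheimer's disease on the same labelled background, had 3 arrays at each of 1, 3, 6 and 9 months. The promoter of the transgenes, the brain region and the age of the WT mice are not given in the sources used here, so a comparison against WT does not separate genotype from age. Each APP/PS1 group holds 1 array labelled male and 2 labelled female, and the WT arrays are 1 of each, while the series' design text speaks of males.

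NONO is an RNA- and DNA-binding protein of the nucleus and belongs with SFPQ and PSPC1 to a small protein family that works in pairs. On the long noncoding RNA Neat1 these proteins build paraspeckles, nuclear bodies that hold back certain RNAs and proteins, and NONO also acts in transcription, splicing and repair of DNA breaks. The gene is X-linked, loss of it causes intellectual disability in people, and mice without it have altered inhibitory synapses. Of a list of 20 paraspeckle genes, Nono was the only member with a symbol among the probes of these arrays, and 0 of 34 marker genes of brain cell types had one. The labelled tissue could therefore not be checked against its markers. In RNA of a whole tissue, fewer cells of a type and less RNA per cell cannot be told apart.

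Replicates 2 and 3 at 1, 3 and 6 months were near-identical arrays. Residuals over the copies of 20 negative probes gave a correlation of 0.80 to 0.825 for these 3 pairs, and the highest among the other 88 pairs was 0.24. The arrays of each pair also occupied the same place on the slide grid and differed in scan setting (356 V and 355 V). Over the 20 copies of the Nono probe itself, deviations from the array mean correlated at 0.595 to 0.938 within these pairs, against a median of 0.125 and a highest value of 0.708 in the others. The arrays of a pair were averaged and counted as 1 sample, which left 2 samples for WT and for 1, 3 and 6 months, and 3 for 9 months. All 9-month arrays were scanned at 354 V and no other group was, so scan setting and the 9-month group cannot be told apart. By labelled sex, the 2 samples of WT and of 1, 3 and 6 months came from different mice. At 9 months replicate 1 (male) also differed from replicates 2 and 3 (female). These labels were not checked, and the design text speaks of males, so the spread given here may still be technical. Nothing in the labels says that replicates 2 and 3 at 9 months came from separate animals.

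The Nono probe gave a bright and even signal. All 280 of its spots were well above background and 0 were saturated, and the median signal of a spot was 65.6 to 686 times its local background. Single copies ran from a processed signal (background-subtracted intensity) of 9432 to 17971 over all arrays. The coefficient of variation between the 20 copies was lowest at 2.83%, in replicate 2 at 3 months, and highest at 6.98%, in replicate 1 at 9 months. The scanner software marked 14 of the 280 spots as outliers, at 7 of the 20 print positions, and 5 of these marks fell on the same copy, at row 268 and column 139. The lowest spot of all, 9432 in replicate 1 at 9 months, was one of the marked spots.

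Before any scaling between arrays, the Nono signal was high in WT and at 1 month, and lower in the older APP/PS1 groups. WT replicates 1 and 2 had a mean signal of 15842 and 16003 intensity units. The 3 arrays at 1 month had 16496, 16777 and 16432, all above both WT arrays. At 3 months the arrays had 11370, 11511 and 11397, the lowest of the series. At 6 months they had 13105, 13457 and 13451, and at 9 months 12523, 13573 and 13394. The 3-month samples therefore lay below those of every other group, while the samples at 6 and 9 months overlapped. Over the samples, the mean was 15922 ± 114 (SD, n = 2) in WT, 16550 ± 76.5 (SD, n = 2) at 1 month, 11412 ± 59.3 (SD, n = 2) at 3 months, 13279 ± 247 (SD, n = 2) at 6 months and 13164 ± 562 (SD, n = 3) at 9 months.

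**Figure D1:**
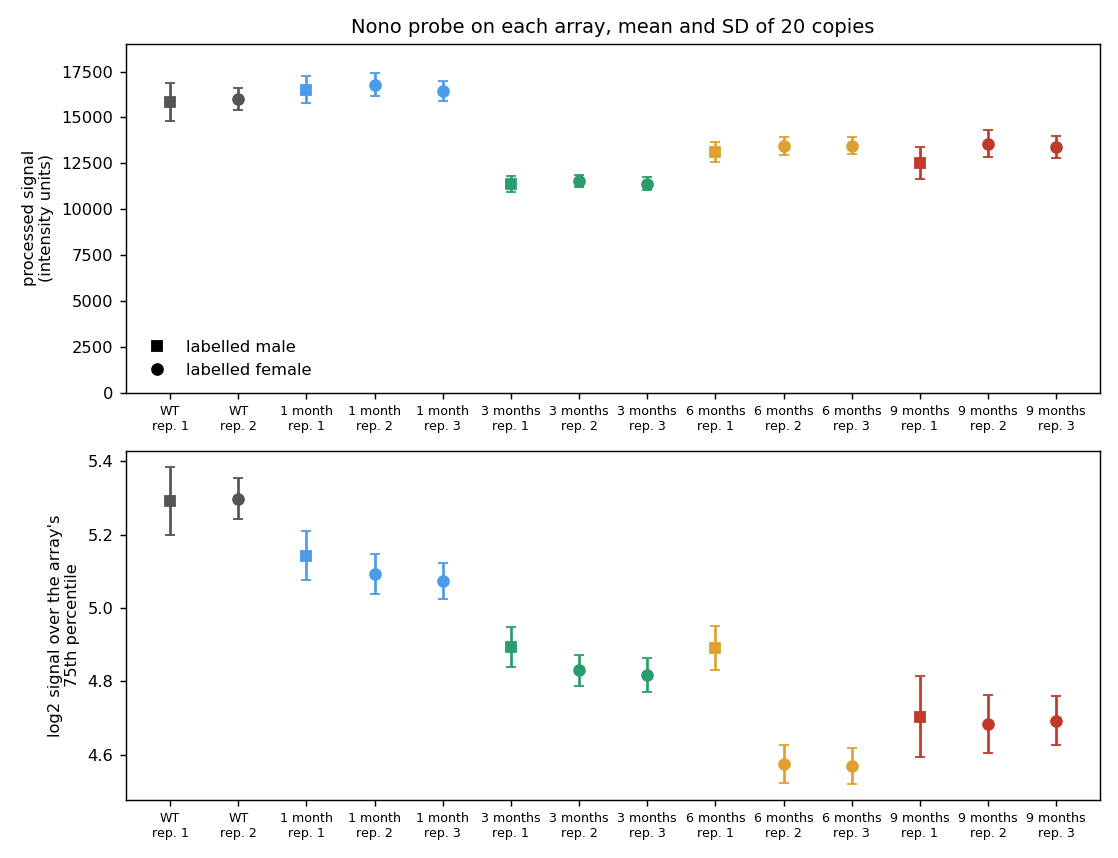
The upper plot gives the processed signal of the Nono probe in intensity units, the lower the log2 signal over the 75th percentile of the array, for each of 14 arrays. Points are means of the copies (in the lower plot without those marked as outliers) and bars the SD of all 20 copies, squares are arrays labelled male and circles arrays labelled female. In the upper plot the 3-month arrays are lowest (11370 to 11511), in the lower the 6-month replicates 2 and 3 (4.58 and 4.57).

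The arrays differed in overall brightness, with a 75th percentile of spot intensity from 384 to 566, so the signal was divided by that percentile and taken as log2. On this scale WT replicates 1 and 2 lay at 5.29 and 5.30. At 1 month the 2 samples lay at 5.14 (replicate 1) and 5.08 (replicates 2 and 3). At 3 months they lay at 4.89 and 4.82, at 6 months at 4.89 and 4.57, and the 3 samples at 9 months at 4.70, 4.68 and 4.69. WT was highest and no APP/PS1 sample reached it, and the 2 samples at 6 months stood further apart than those of any other group. The 75th percentile of the arrays at 6 months was 446 in replicate 1 and 562 and 566 in replicates 2 and 3, and the unscaled log2 signals of the 2 samples differed little (13.69 and 13.71). A scaled value is the unscaled log2 signal less the log2 of the percentile. The scaled gap between these samples (-0.32, replicates 2 and 3 minus replicate 1) therefore appears when the percentile is subtracted. A gap in the same direction was also present without the percentile. Relative to the mean of the other 14 reference genes on the same array, the samples lay at 0.31 (replicate 1) and 0.14 (replicates 2 and 3), a difference of -0.17. Why the percentiles differed was not tested.

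The group means in descending order were 5.29 ± 0.0047 (SD, n = 2) in WT, 5.11 ± 0.042 (SD, n = 2) at 1 month, 4.86 ± 0.050 (SD, n = 2) at 3 months, 4.73 ± 0.23 (SD, n = 2) at 6 months and 4.69 ± 0.0095 (SD, n = 3) at 9 months. WT and 1 month did not overlap, nor did 1 and 3 months. Neighbouring groups 3 and 6 months, and 6 and 9 months, overlapped and did not differ beyond their spread. Differences from WT on the log2 scale were -0.18 (SE 0.11) at 1 month, -0.44 (SE 0.11) at 3 months, -0.56 (SE 0.11) at 6 months and -0.60 (SE 0.097) at 9 months. They correspond to 0.881, 0.739, 0.677 and 0.659 times the WT level. The standard errors come from a limma fit of all 48298 probes kept and share the same 2 WT samples. They also use 1 estimate of spread for all groups, to which the 6-month samples (SD 0.23) add most. From age to age the differences were -0.25 (SE 0.11) from 1 to 3 months, -0.13 (SE 0.11) from 3 to 6 months and -0.039 (SE 0.097) from 6 to 9 months. The last 2 rested on single 6-month samples, since the step from 3 to 6 months was 0.033 without replicates 2 and 3 at 6 months, and the step from 6 to 9 months was 0.12 without replicate 1. Over all probes kept, the median difference lay between -0.044 and 0.074 in these 7 comparisons.

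Samples of the APP/PS1 groups lay wholly below WT at each of the 4 ages for Nono. The same held for 26.5% of the probes kept at 1 month, 27.4% at 3 months, 23.2% at 6 months and 28.1% at 9 months. Samples at 3 months lay wholly below those at 1 month, as they did for 29.2% of probes. Those at 6 months overlapped those at 3 months, and those at 9 months overlapped those at 6 months, where 22.8% and 29% of probes lay wholly lower. These shares are the background for groups of 2 or 3 samples, and since the gene was chosen from these comparisons nothing is read from them.

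The order of the groups depended on how arrays were brought to a common scale. Without scaling, 1 month was highest (log2 signal 14.02 ± 0.0060, SD, n = 2) and stood 0.066 above WT (13.96 ± 0.012, SD, n = 2), and 3 months was lowest (13.48 ± 0.0073, SD, n = 2). The 6-month and 9-month groups lay between these, at 13.70 ± 0.015 (SD, n = 2) and 13.70 ± 0.053 (SD, n = 3). The difference between 6 and 3 months was then 0.22 (SE 0.086), the opposite sign of the scaled value. Scaled to the mean of the other 14 reference genes, 1 month again stood above WT, by 0.017 (SE 0.078). The differences from WT were then -0.36 (SE 0.078) at 3 months, -0.41 (SE 0.078) at 6 months and -0.55 (SE 0.072) at 9 months. The mean of the 14 holds B2m and Gusb, which rose without scaling by 1.28 and 0.72 from 6 to 9 months. The median change over the 14 was 0.00023. From 6 to 9 months the ratio of Nono to B2m changed by -1.28 and that to Gusb by -0.72. The ratios to the other genes changed by between -0.31 (Tfrc) and 0.20 (Ldhal6b), and the median over the 14 ratios was -0.0058. A mean without these 2 genes was not computed. On every one of the 8 processings drawn in the plot of settings, 3, 6 and 9 months were below WT. At 1 month the value changed sign between them.

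**Figure D2:**
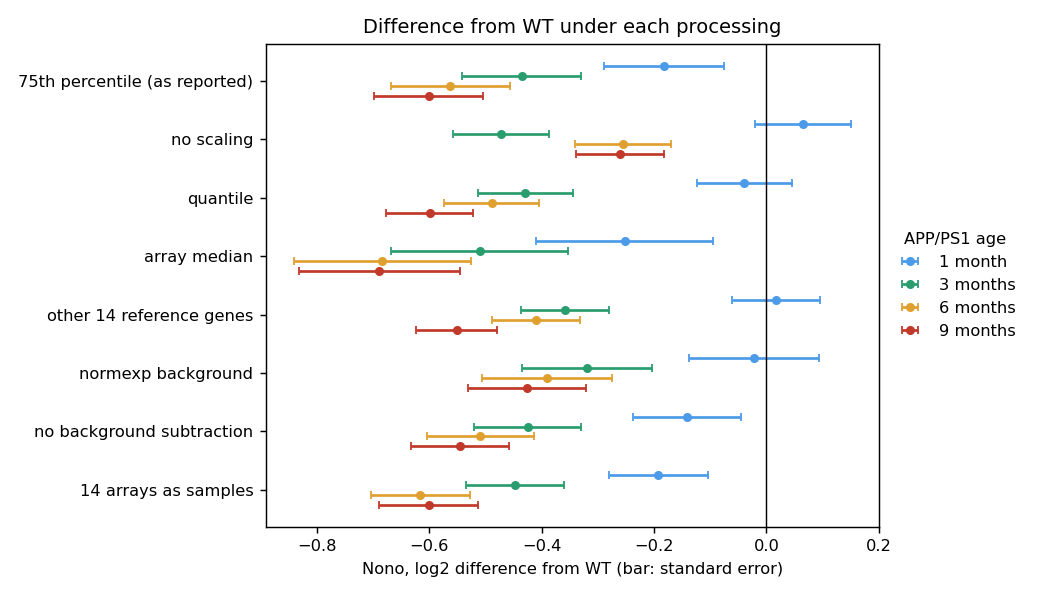
Log2 difference of Nono from WT (horizontal axis) at 1, 3, 6 and 9 months under 8 ways of processing; points are differences of group means and bars their standard errors. Values at 3, 6 and 9 months are all negative, while those at 1 month run from -0.25 (array median) to 0.066 (no scaling).

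Differences from WT were also computed with scan setting taken into account, where a setting held more than 1 group. With the 8 arrays scanned at 356 V alone, they were -0.18 at 1 month, -0.43 at 3 months and -0.56 at 6 months. Taking the separate arrays and fitting the scan setting as a block, they were -0.16, -0.42 and -0.59. Neither fit can show whether the differences hold across scan settings. All WT arrays used were scanned at 356 V. At 1, 3 and 6 months the arrays at the other setting were near-identical partners of arrays at 356 V. Leaving them out kept nearly the same data, and the block fit counted them as separate samples. The 8 arrays at 356 V occupied 8 different places on the slide grid, so place and sample cannot be told apart.

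The 20 copies of the probe showed the group differences position by position. On the scaled values, each of the 20 copies was lower in every sample at 1, 3, 6 and 9 months than in both WT samples at the same print position. The difference from WT ranged over copies from -0.31 to -0.12 at 1 month, from -0.55 to -0.31 at 3 months, from -0.66 to -0.47 at 6 months and from -0.72 to -0.53 at 9 months. The SD of these differences over copies was 0.056, 0.063, 0.053 and 0.048 in the same order. From 6 to 9 months 15 of 20 copies were lower, with differences from -0.21 to 0.060. Without scaling, 20 of 20 copies were lower than WT at 3, 6 and 9 months, but 3 of 20 at 1 month. Copies on an array share its RNA and its hybridisation, so they measure the precision of an array and not the spread between mice.

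**Figure D3:**
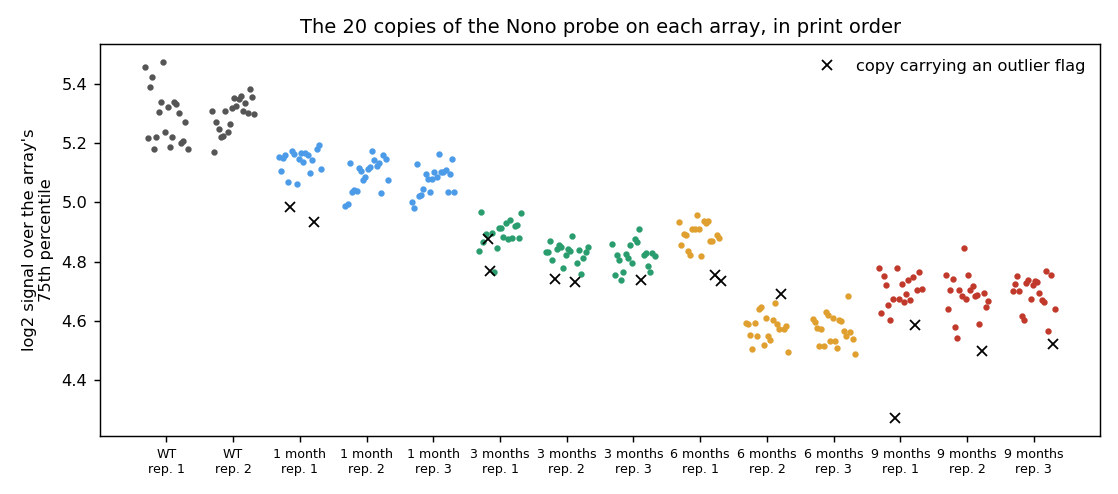
Each point is 1 of the 20 copies of the Nono probe, in print order from left to right within an array, on the log2 scale over the 75th percentile of the array (vertical axis); crosses are the 14 copies with an outlier flag. The copies of WT lie above those of the 3-, 6- and 9-month arrays, and replicate 1 at 6 months stands apart from replicates 2 and 3.

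Because Nono is 1 of the 15 genes printed 20 times, its within-array ratio to each of the other 14 was computed, which needs no scaling. Ratios are given as the difference from their WT mean on the log2 scale, and only their change has a meaning. The 14 genes differ in level, with scaled log2 means from 8.53 (Gapdh) down to -0.26 (Gk) and -3.01 (Ldhal6b). How ratios to the dimmest of them depend on background subtraction was not tested. All 14 ratios share the Nono values that chose the gene, so they are not independent observations, and their counts are a description from which nothing is read. At 3 months the ratio was lower than in WT for 14 of 14 genes, with no overlap of samples for any of them and a median change of -0.42. The same held for 4.45% of the 48283 kept probes outside the 15 reference genes. At 9 months it was likewise lower for 14 of 14 without overlap, with a median of -0.51, as for 8.55% of those probes. At 6 months it was lower for 12 of 14, all 12 without overlap, with a median of -0.50, and 5.87% of those probes had at least 12 such ratios. The 2 exceptions were B2m, which encodes the invariant subunit of MHC class I, and Actb, which encodes cytoskeletal actin. At 1 month the ratio was lower for 9 and higher for 5 of 14, with a median of -0.018 and a range from -0.17 (Rpl13a) to 0.50 (B2m). The samples did not overlap for 5 of the lower and 4 of the higher ratios, so the direction at 1 month differed with the gene. From 1 to 3 months it was lower for 14 of 14, and for 13 of these the samples did not overlap, where 14.7% of those probes had at least 13 such ratios. From 3 to 6 months it was lower for 8 and higher for 6, without overlap for 5 and 4 of these. From 6 to 9 months it was lower for 7 and higher for 7, without overlap for 6 and 4 of these. The share of probes with such counts was not computed for these steps or for 1 month.

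Ppia, a prolyl isomerase used widely as a reference, had the steadiest ratios to the rest of the 15 genes. The ratio of Nono to Ppia, set to 0 at the WT mean, was -0.010 and 0.010 in the WT samples and -0.014 and -0.0063 at 1 month. It was -0.45 and -0.48 at 3 months, -0.33 and -0.57 at 6 months, and -0.63, -0.58 and -0.57 at 9 months. The WT and 1-month samples lay together and all older samples lay below them. Against Gapdh, a glycolytic enzyme, the change was 0.019 ± 0.016 (SD, n = 2) at 1 month, -0.47 ± 0.020 (SD, n = 2) at 3 months, -0.33 ± 0.072 (SD, n = 2) at 6 months and -0.31 ± 0.044 (SD, n = 3) at 9 months. Here the 3-month samples were lowest and the 6- and 9-month samples overlapped. Against Tbp, the TATA-box binding protein, the lowest samples were those at 6 months, at -0.57 ± 0.052 (SD, n = 2), followed by 3 months at -0.41 ± 0.021 (SD, n = 2) and 9 months at -0.37 ± 0.026 (SD, n = 3). The 1-month samples lay at -0.14 ± 0.010 (SD, n = 2) against Tbp, below both WT samples. Against Gusb, lysosomal beta-glucuronidase, the change was -0.097 ± 0.030 (SD, n = 2) at 3 months and -1.04 ± 0.28 (SD, n = 3) at 9 months. The place of 3, 6 and 9 months relative to each other thus differed with the gene Nono was set against.

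**Figure D4:**
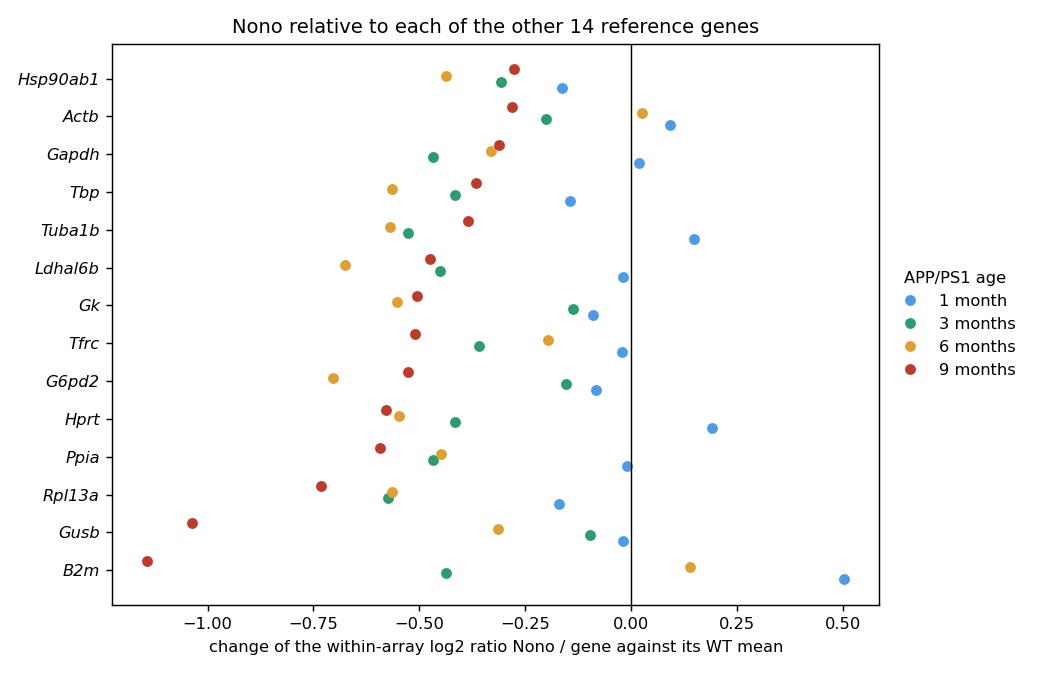
Change of the within-array log2 ratio of Nono to each of the other 14 reference genes against its WT mean (horizontal axis), by gene (vertical axis) and APP/PS1 age (colour); each point is a difference of group means. The points of 3 and 9 months are below 0 for all 14 genes, those of 6 months for 12, and those of 1 month for 9.

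Among the 15 reference genes, Nono was one of the least even. The mean SD of its log2 ratios to the other 14, over 11 samples, was 0.29, rank 13 of 15 from the steadiest, with Gusb (0.377) and B2m (0.524) above it and Ppia (0.185) lowest. Its SD over samples after scaling was 0.25, also rank 13, and without scaling 0.20, rank 9. At 3 months against WT its scaled difference was the lowest of the 15, where the other 14 ran from -0.34 to 0.14 with a median of -0.020. At 9 months it was again the lowest, against -0.33 to 0.54 and a median of -0.094. At 6 months it was the third lowest, after B2m and Actb, and at 1 month the sixth lowest, near the median of the others (-0.16). Of the other 14 genes, the samples lay wholly below WT for 11 at 1 month, 7 at 3 months, 7 at 6 months and 8 at 9 months. The shares among all probes kept were 26.5%, 27.4%, 23.2% and 28.1% in the same order.

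The probes whose values followed those of Nono most closely had no gene symbol, as was the case for 59593 of the 59709 probes. Likeness was measured as the root mean square difference of log2 values, each centred on its own mean, over 11 samples. Array scaling cancels in this measure. The closest of 48297 other probes were MM9LINCRNAEXON11308-_P1 (0.049), ASMM9PARTA000779 (0.063) and MM9LINCRNAEXON10240+_P1 (0.066), against a median of 0.40 over all. At 9 months these 3 probes lay -0.56, -0.63 and -0.58 from WT on the scaled log2 values, beside -0.60 for Nono. They were picked for their likeness over the same samples, so nearby values follow from the choice. Among the 88 other probes with a symbol, the closest were Gm21953 (0.13), Hsp90ab1, a cytosolic chaperone (0.14), Actb (0.15), H2al2b, a histone H2A variant (0.17), and Tsnax, the partner of translin (0.18). By likeness these 5 ranked from 401 to 2552 among all the probes compared. A probe with no change at all on the scaled values would score 0.24, and 15.3% of probes scored below that. At 3 months these 5 genes, in the same order, lay -0.13, -0.13, -0.24, -0.25 and 0.043 from WT, beside -0.44 for Nono. A low score here thus does not mean the same course as Nono.

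Labelled sex had no part in the choice of Nono, and the gene is X-linked, so the arrays labelled female were compared with those labelled male within groups. On the scaled log2 values the difference female minus male was 0.0067 in WT, -0.059 at 1 month, -0.071 at 3 months and -0.32 at 6 months. At 9 months, with the mean of the 2 females, it was -0.015. The female value was thus lower in 4 of 5 groups, and the mean difference was -0.091 (exact sign-flip permutation test over 5 groups, two-sided p = 0.125, where 0.0625 is the smallest possible). In a limma fit of all probes with group and sex, the difference was -0.087 (SE 0.060) with an adjusted p of 0.693. That fit called 0% of probes (0 of 48298), with 3887 at an unadjusted p under 0.05, and over 14 separate arrays, with the near-identical arrays counted separately, it called 278, with an adjusted p of 0.285 for Nono. Without scaling the mean difference had the other sign (0.026, same permutation test, p = 0.125), with the female lower in 1 of 5 groups. Relative to the other 14 reference genes it was -0.036 (same permutation test, p = 0.5), with the female lower in 3 of 5 groups. The sex difference in WT minus that in APP/PS1 was 0.11 (SE 0.15) by limma, with an adjusted p of 0.845 and 0.0207% of probes called. WT held 1 male and 1 female array, so the error of that value comes from the APP/PS1 samples alone and WT is assumed to vary like them. A difference of Nono with labelled sex was not detectable with these samples.

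**Figure D5:**
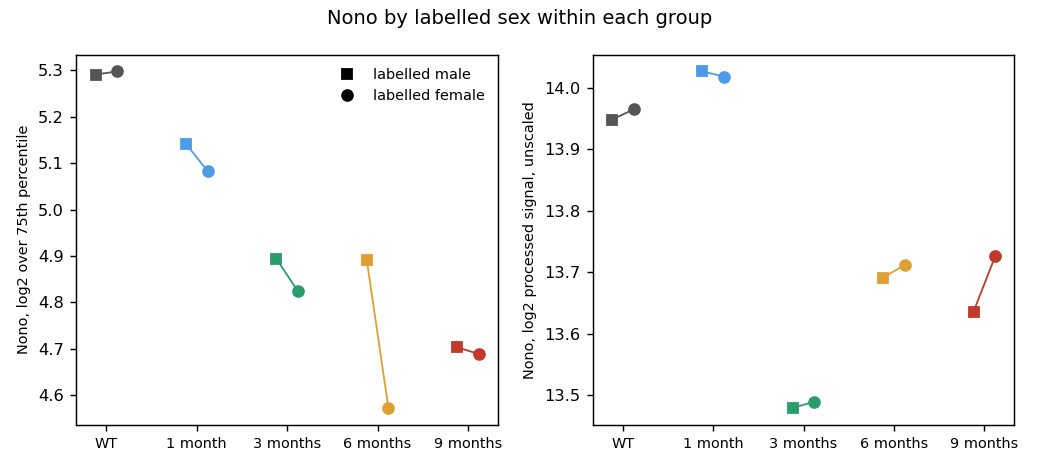
Nono in arrays labelled male (squares) and female (circles) within each group, as log2 signal over the 75th percentile of the array (left) and as unscaled log2 signal (right); each point is 1 sample, except the female point at 9 months, the mean of 2. The widest difference female minus male on the left, -0.32 at 6 months, is 0.021 on the right.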

How the data were processed

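Deposited scanner files of 14 of the 15 labelled samples were used. Per the submitters' processing notes, the authors made the spot intensities with Agilent Feature Extraction 10.7.1.1. The processed signal is background-subtracted and detrended, per the file headers. The deposited flags (well above background, non-uniform, population outlier, saturated) are 0 or 1 per spot, per the file headers. A deposited table of the series holds the mean local background intensity of each spot. All 62513 values of each of these 14 arrays equalled it within 0.001. It gives no level of Nono, so the third WT sample was not analysed here.

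Control spots and 1200 spots of negative probes did not enter. Processed signals were divided by the array's 75th percentile, taken as log2 and averaged over copies without outlier flags. A probe was kept if at least 3 arrays had it well above background, which left 48298 probes. Arrays of a group whose negative-probe residuals correlated above 0.5 were averaged. Of 59709 probes, 116 were named through RefSeq accessions (GRCm38.p6 table, names only). Differences and errors come from limma 3.58.1 in R 4.3.3, with Benjamini-Hochberg adjustment over all probes kept. The fit with labelled sex was run on simulated data with added differences far larger than that of Nono. It therefore does not show how small a difference could be found. Replicates were numbered in accession order. Members, lists and named genes (the other 14 reference genes, and the 5 symbols and 3 coded probes nearest to Nono) were chosen with earlier results of these data known. Alternatives were other scalings, background corrections, ways of averaging copies, scan setting, labelled sex and each sample left out. Normexp used the median spot signal. The number of arrays limits the precision.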

Additional observations from a re-analysis of the deposited data

How the results depend on the processing

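All values are log2 differences of Nono. Against WT, the difference at 3 months was negative in all 16 alternatives (-0.51 to -0.32), at 6 months in 16 of 16 (-0.72 to -0.26), at 9 months in 15 of 15 (-0.69 to -0.26) and at 1 month in 14 of 16 (-0.25 to 0.066). Without scaling the values were 0.066 at 1 month, -0.26 at 6 and -0.26 at 9 months against WT, -0.54 from 1 to 3 months, 0.22 from 3 to 6 months and 0.030 for females minus males. With quantile normalization they were -0.039 at 1 month and -0.39 from 1 to 3 months, and with the array median -0.68 at 6 months. Scaled to the other 14 reference genes they were 0.017 at 1 month, -0.41 at 6 months, -0.37 from 1 to 3 months and -0.14 from 6 to 9 months. With normexp they were -0.021, -0.32, -0.39 and -0.43 at the 4 ages against WT. The cause of these shifts was not tested. Leaving out 1 sample at a time gave -0.72 (without replicate 1) to -0.40 (without replicates 2 and 3) at 6 months against WT, -0.29 to 0.033 from 3 to 6 months and -0.20 to 0.12 from 6 to 9 months, each extreme set by a 6-month sample. Other settings moved values by less than the residual SD of the fit (0.096). That SD is wide for most groups, since the SD over samples was 0.23 at 6 months and 0.0047 to 0.050 elsewhere. With no filter on dim probes the share of probes wholly below WT was 30.8% at 1 month, 23.2% at 3, 26.4% at 6 and 26.8% at 9 months, and of those wholly below the preceding age 25.1% at 3, 25.9% at 6 and 24.9% at 9 months. No paired analysis was possible because all titles carry the same replicate number; labelled sex as a block gave -0.59 at 9 months.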
